A study of Homo sapiens with 6 samples.

Results

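The genes described here are 10 members of the cholesterol efflux pathway governed by the liver X receptors (LXRs): *APOE*, *APOC1*, *ABCA1*, *ABCG1*, *MYLIP*, *LPCAT3*, *PLTP*, *NR1H2*, *NR1H3* and *SCARB1*. They were taken by symbol from the count matrix, in which all 10 were found among 57773 genes, and all 10 were among the 16290 genes with enough reads to be tested. They were chosen from measured values of the same contrast, so their values are given as a description and their adjusted p-values (FDR) as the output of a fit over the whole transcriptome, not as independent support. RNA of the human liposarcoma line SW872, an established cell line, was sequenced after 24 h with 18 μM Apatinib in 3 replicates (Apatinib group) and without treatment in 3 replicates (control group). Apatinib is a small molecule inhibitor of the VEGFR-2 tyrosine kinase. Both groups came from the same line and differed by the treatment alone, as labelled, and no vehicle was named for the control group. The study's methods describe the replicates as biological replicates. All statements hold for 1 cell line, 1 dose and 1 time point.

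LXRs are nuclear receptors that bind oxysterols, the oxidised forms of cholesterol, and act on DNA as heterodimers with retinoid X receptors (RXRs). Their targets move cholesterol out of the cell: the transporters ABCA1 and ABCG1 pass it to lipoprotein particles, and apolipoproteins such as APOE and APOC1 form the surface of such particles. Other targets change what a membrane holds or takes up, as MYLIP marks lipoprotein receptors for degradation, LPCAT3 remodels phospholipids and PLTP moves phospholipids between particles.

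The promoters of *ABCA1* and *APOE* are shown because these 2 genes carry the efflux step and the most abundant transcript of the group. RefSeq promoter windows on GRCh38.p14, each covering 250 bases before and 50 after a transcript start, were matched by symbol to 8 of the 10 genes, all but *ABCG1* and *SCARB1*, with 14 windows in all. Each window was compared on both strands with the direct repeat bound by LXR and RXR, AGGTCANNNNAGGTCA, in which 2 half-sites of 6 bases lie 4 bases apart, and mismatches were counted over the 12 half-site bases. The 250 bases before the start are printed in the direction of the gene, with the best match of the window in capitals. The *ABCA1* stretch lies at chr9:104928156-104928405 on the minus strand, and the *APOE* stretch, that of the first of its windows, at chr19:44905546-44905795 on the plus strand.
ABCA1: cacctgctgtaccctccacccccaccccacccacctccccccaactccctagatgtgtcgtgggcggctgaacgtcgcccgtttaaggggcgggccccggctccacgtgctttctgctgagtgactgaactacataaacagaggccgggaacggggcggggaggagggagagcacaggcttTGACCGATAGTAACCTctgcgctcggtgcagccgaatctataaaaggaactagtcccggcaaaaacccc
APOE: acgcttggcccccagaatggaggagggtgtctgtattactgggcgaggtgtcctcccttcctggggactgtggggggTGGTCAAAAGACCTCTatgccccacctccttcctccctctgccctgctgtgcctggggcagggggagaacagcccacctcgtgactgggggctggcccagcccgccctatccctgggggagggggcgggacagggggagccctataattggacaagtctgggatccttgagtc
The *ABCA1* match had 2 mismatches and lay from base -69 to base -54 relative to the start, on the strand opposite to the gene. Of all 35116 promoter windows, 2.34% held a match at least as good, and *ABCA1* was the only one of the 8 genes with one. In *APOE* the best match had 4 mismatches, from base -173 to base -158, a quality found in 72.5% of all windows. *APOC1* and *PLTP* each had a window with 3 mismatches, a quality found in 18.6% of all windows. A match of letters is a description of the sequence and was not linked to binding here.

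Total counts ranged from 17043314 to 22067558 per replicate, the highest being control replicate 3. Control replicates 1 and 2 were far closer to each other (chi-square of 2.27 per gene, where sampling noise alone gives 1) than any other pair of the same group (18.2 to 44.5 per gene). They differed by more than sampling noise, but this value cannot tell whether they came from separate cultures. They were kept as separate samples, and every control SD and FDR given for 3 control replicates rests on that. For the 10 genes and the other pathway genes named by rule, calls that depend on these 2 libraries are given with and without them, whereas the marker gene calls in this paragraph were not refitted with libraries left out. Of 8 adipocyte markers, *FABP4* and *ADIPOQ* had 0 counts and 0 FPKM in every replicate and *CEBPA* 0 counts and at most 0.319 FPKM, while *PPARG*, the master regulator of fat cell formation, was expressed at 19.7 to 27.1 FPKM and did not pass the test (log2 fold change 0.11, FDR = 0.597 by edgeR). *LPL*, the lipoprotein lipase gene and also an LXR target, was the only differentially expressed gene (DEG) of these 8 markers, at 18.3 ± 4.71 CPM with Apatinib against 10.2 ± 1.46 CPM (SD, n = 3 per group, log2 fold change 0.84, FDR = 0.0237, edgeR). *PLIN1*, a lipid droplet coat gene, had a log2 fold change of 0.60 and did not pass (FDR = 0.225, edgeR), although its groups did not overlap. FPKM is the number of fragments scaled to transcript length and to the fragments mapped in the library, and a count of 0 allows up to 3 counts in a replicate, for counting error only. All 6 mesenchymal markers were detected, and their sum was 1484 to 1658 FPKM with Apatinib and 1181 to 1302 FPKM in the control group, without overlap. Most of this sum was *VIM*, with a mean of 1133 FPKM with Apatinib and 936 FPKM in the control group. The groups overlapped in *VIM*, and it did not pass (log2 fold change 0.27, FDR = 0.177, edgeR). *COL1A1* had a log2 fold change of -0.08 (FDR = 0.740, edgeR). Among the 6 markers, *CD44* and *COL1A2* each had a log2 fold change of 0.46 (FDR = 0.0425 and FDR = 0.0394, edgeR), short of the log2 fold change of 0.5 that a DEG had to pass. The 7 macrophage markers, listed because macrophages express APOE strongly, summed to 7.87 to 13.3 FPKM with Apatinib and 3.90 to 5.12 FPKM in the control group. *CD163*, *C1QA* and *PTPRC* were at 0 counts in every replicate. *CD14* went the other way, with 3.78, 3.84 and 2.29 CPM with Apatinib against 4.21, 5.17 and 4.90 CPM, without overlap, and did not pass the test (log2 fold change -0.53, FDR = 0.156, edgeR). With Apatinib most of the sum was *CD68*, a lysosomal protein gene, with 6.78 to 11.8 FPKM against 1.79 to 3.30 FPKM but at most 1 count. In GENCODE 29 another gene model covers 81.7% of the *CD68* exon bases on the same strand, and antisense models cover 25.05% and 18.32% of those of *CEBPA*, so the counts of these 2 genes may not measure their expression. Of 4 endothelial markers listed, 3 were found, and they summed to 0.356 to 0.466 FPKM with Apatinib and 0.428 to 0.538 FPKM in the control group. Among them *VWF* was a DEG higher with Apatinib (log2 fold change 1.52, FDR = 0.0386) and *CDH5* a DEG lower (-1.22, FDR = 0.0242, both by edgeR), with at most 53 and 56 counts in any replicate. *KDR*, which encodes VEGFR-2, had 4 to 11 counts and was not tested. Epithelial markers summed to 185 to 221 FPKM with Apatinib and 154 to 186 FPKM in the control group, nearly all from the keratin genes *KRT8* and *KRT18*. The other members, *EPCAM* and *CDH1*, had at most 7 and 2 counts in any replicate and were not tested. *KRT8* was a DEG higher with Apatinib (log2 fold change 0.71, FDR = 0.0166, edgeR), and *KRT18* did not pass (0.28, FDR = 0.156, edgeR). The length implied by count and FPKM was only 0.215 of the GENCODE 29 exon bases for *KRT8* and 0.146 for *KRT18*, so their 2 units do not match well. The part of these marker genes in the results was not tested.

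All 10 genes had a higher mean with Apatinib than in the control group, and 7 of them, *APOE*, *APOC1*, *ABCA1*, *ABCG1*, *MYLIP*, *PLTP* and *NR1H3*, were DEGs, that is, genes with FDR below 0.05 and a log2 fold change beyond 0.5 in edgeR's quasi-likelihood test. Over all tested genes, 11.5% were DEGs, 5.97% were higher with Apatinib and 5.48% lower. The median log2 fold change was 0.85 over the 10 genes and 0.0028 over all tested genes. Together the 10 genes took 0.107% to 0.147% of all counts in the Apatinib replicates and 0.0512% to 0.0560% in the control replicates. These are bulk samples, in which more cells of a kind and more RNA per cell cannot be told apart. As the members were picked with this contrast known, nothing is read from the number of DEGs among them.

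**Figure D1:**
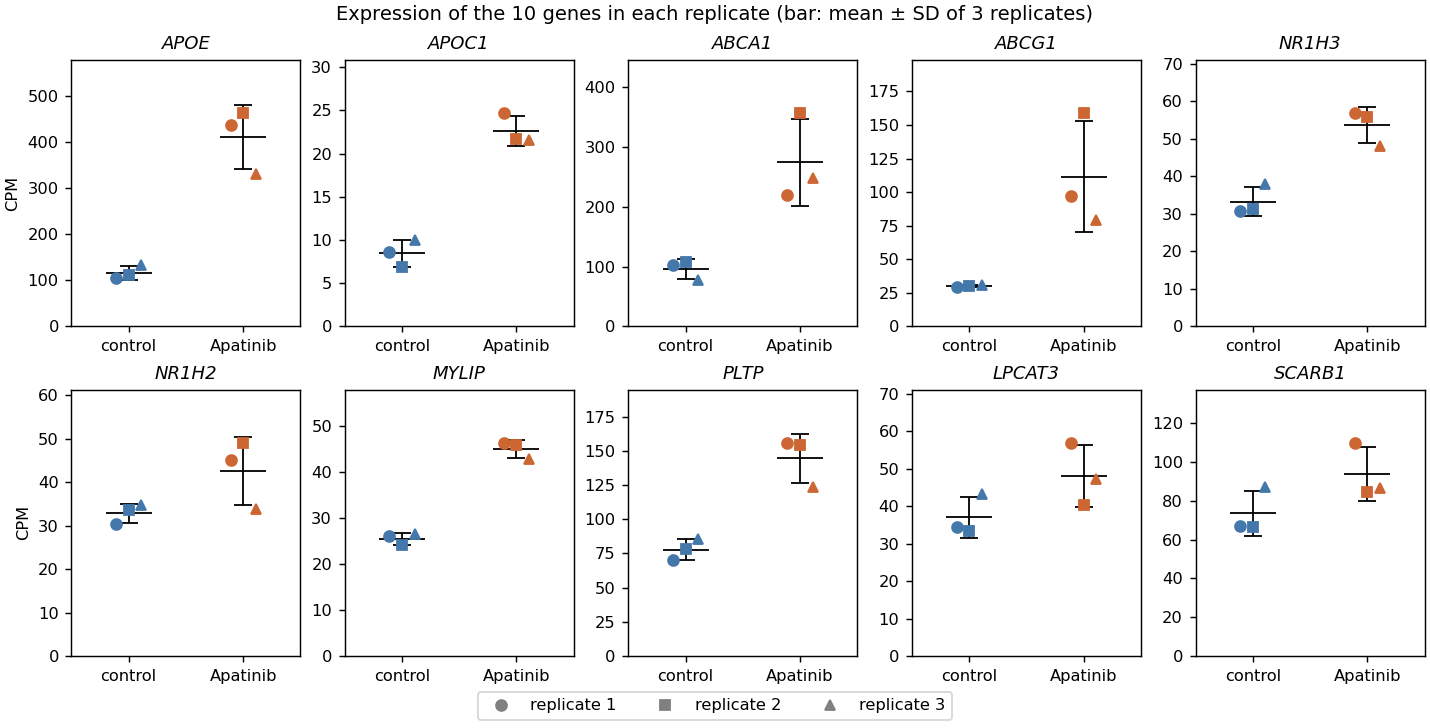
Counts scaled to the library total (CPM, vertical axes from 0, a scale of its own in each panel) of the 10 genes in the 3 control and 3 Apatinib replicates, with horizontal bars at the mean and error bars of 1 SD. The groups are apart in all panels except *NR1H2*, *LPCAT3* and *SCARB1*, and *ABCG1* runs from 79.5 to 158.6 CPM with Apatinib but only from 29.2 to 31.2 CPM in the control group.

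*APOE* (ENSG00000130203) encodes apolipoprotein E, the ligand by which lipoprotein particles bind their cell surface receptors. Its level was 438, 463 and 332 CPM in Apatinib replicates 1 to 3 and 104, 113 and 133 CPM in control replicates 1 to 3, where CPM is the count relative to the library total after TMM scaling for composition. The lowest Apatinib replicate stood well above the highest control replicate. The Apatinib mean was 411 ± 69.4 CPM and the control mean 117 ± 14.8 CPM (SD, n = 3 each). This was a 3.52-fold rise, with a log2 fold change of 1.82 (SE 0.155) and FDR = 0.000260 by edgeR. Of all counts, 0.0335% to 0.0475% fell on *APOE* with Apatinib and 0.0106% to 0.0132% in the control group. When any 1 replicate was left out, its log2 fold change stayed between 1.72 and 1.95.

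*APOC1* (ENSG00000130208), which lies beside *APOE* and encodes a small apolipoprotein that slows lipoprotein uptake and lipase action, was much less abundant. It held 24.7, 21.7 and 21.6 CPM in the Apatinib replicates and 8.60, 6.87 and 9.99 CPM in the control replicates. The Apatinib replicates sat close together and the groups did not overlap. Its mean was 8.49 ± 1.56 CPM in the control group and 22.6 ± 1.75 CPM with Apatinib (SD, n = 3 each), 2.66-fold higher on the fitted scale (log2 fold change 1.41, SE 0.168, FDR = 0.00213, edgeR). The counts behind these values were 377 to 424 with Apatinib and 125 to 218 in the control group. In GENCODE 29, 43.2% of the exon bases of *APOC1* are shared with AC011481.3, a gene model on the same strand, so the split of reads between them is uncertain.

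The genes around *APOE* and *APOC1* on the chromosome were compared next. Of 8 neighbours listed, *APOC1P1*, *APOC4* and *APOC2* had at most 4 counts in any replicate and were not tested. Of the 5 tested, *BCAM*, which encodes a cell adhesion molecule, was the only DEG and lay just past the limit, at 217, 175 and 158 CPM against 118, 123 and 146 CPM (log2 fold change 0.50, SE 0.145, FDR = 0.0428, edgeR). It lost the call under 11 of 16 alternative settings. Among these were the fits without control replicate 1 (FDR = 0.196) and without control replicate 2 (FDR = 0.181, both by edgeR). *PVRL2* (an adhesion receptor) had a log2 fold change of 0.29 (SE 0.138, FDR = 0.173), *TOMM40* (the channel of mitochondrial protein import) -0.24 (SE 0.141, FDR = 0.278), *CLPTM1* -0.02 (SE 0.144, FDR = 0.931) and *RELB* (an NF-κB subunit) 0.84 (SE 0.360, FDR = 0.139), all by edgeR. None of these 4 passed the test, although *RELB* did with no filter on low counts (FDR = 0.00136) and with a replicate block (FDR = 0.0269, both by edgeR). *RELB* was high in 1 library, with 283 counts in Apatinib replicate 2 against 122 and 92 in the other two, and without that replicate its log2 fold change was 0.23 (FDR = 0.551, edgeR). *PVRL2* went to 0.18 without Apatinib replicate 1, and *TOMM40* to -0.15 without Apatinib replicate 3 and -0.12 without control replicate 3.

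Both cholesterol transporters rose. *ABCA1* (ENSG00000165029), which loads cholesterol and phospholipid onto lipid-poor apolipoproteins, had 219, 356 and 248 CPM in Apatinib replicates 1 to 3 and 103, 108 and 76.9 CPM in control replicates 1 to 3. No control value reached the Apatinib range. From 96.0 ± 16.8 CPM the mean went to 274 ± 72.3 CPM (SD, n = 3 each), which the fit put at 2.86-fold (log2 fold change 1.51, SE 0.192, FDR = 0.00304, edgeR). It was the only one of the 10 genes that was lowest in control replicate 3, the replicate in which the other 9 were highest within their group.

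*ABCG1* (ENSG00000160179), which passes cholesterol to mature HDL particles, had a fold change near that of *APOE*. It measured 96.7, 158.6 and 79.5 CPM with Apatinib against 29.2, 30.0 and 31.2 CPM in the control group. Every Apatinib value was above every control value, but the treated replicates were spread over 2.0-fold and the control replicates over 1.07-fold. The means were 111.6 ± 41.6 and 30.1 ± 1.00 CPM (SD, n = 3 each), 3.70-fold apart in the fit (log2 fold change 1.89, SE 0.218, FDR = 0.00192, edgeR). Both transporters were highest in Apatinib replicate 2. Without that replicate the log2 fold change was 1.55 for *ABCG1* and 1.29 for *ABCA1*, and both calls held. *ABCG1* had the larger log2 fold change of *ABCG1* and *APOE* in the full count fit, and *APOE* had it without Apatinib replicate 2, without control replicate 3 and with limma on log2(FPKM + 1) or log2(FPKM + 0.1).

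The receptors themselves differed in what passed the test. *NR1H3* (ENSG00000025434) encodes LXRα, the form found mainly in liver, fat and macrophages, and *NR1H2* (ENSG00000131408) encodes LXRβ, which most cells carry. For *NR1H3* the Apatinib replicates had 56.8, 55.9 and 48.1 CPM and the control replicates 30.8, 31.2 and 37.9 CPM. The ranges were separate, and the mean rose from 33.3 ± 3.96 to 53.6 ± 4.78 CPM (SD, n = 3 per group, log2 fold change 0.69, SE 0.135, 1.61-fold, FDR = 0.0119, edgeR). This call was lost without control replicate 1 (FDR = 0.0818) and without control replicate 2 (FDR = 0.0796, both by edgeR), and also when these 2 libraries were summed into 1 (FDR = 0.0773, edgeR). Of its exon bases, 4.17% overlap *ACP2* on the opposite strand.

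*NR1H2* stood at 45.0, 49.0 and 33.8 CPM with Apatinib and at 30.4, 33.5 and 34.7 CPM in the control group. Apatinib replicate 3 fell inside the control range. The means were 42.6 ± 7.86 and 32.9 ± 2.20 CPM (SD, n = 3 each), and the log2 fold change of 0.37 (SE 0.152) did not pass (FDR = 0.122, edgeR). Without Apatinib replicate 3 it was 0.52 and passed (FDR = 0.0396, edgeR). The change of *NR1H3* was not tested against that of *NR1H2*.

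The other genes of the group act on receptors, phospholipids and HDL. *MYLIP* (ENSG00000007944), a ubiquitin ligase that acts on lipoprotein receptors, was the tightest of the 10 with Apatinib, at 46.2, 45.8 and 42.8 CPM against 26.0, 24.0 and 26.5 CPM. The groups were far apart relative to their spread, with coefficients of variation of 4.14% and 5.07%. The mean rose from 25.5 ± 1.29 to 44.9 ± 1.86 CPM (SD, n = 3 per group, log2 fold change 0.82, SE 0.122, 1.76-fold, FDR = 0.00476, edgeR).

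*PLTP* (ENSG00000100979), the phospholipid transfer protein, had 155.7, 154.2 and 123.9 CPM with Apatinib and 69.9, 78.4 and 85.4 CPM in the control group, without overlap. The mean increased from 77.9 ± 7.77 to 144.6 ± 17.9 CPM (SD, n = 3 per group, log2 fold change 0.89, SE 0.135, 1.86-fold, FDR = 0.00487, edgeR). *CTSA* shares 7.87% of the *PLTP* exon bases on the opposite strand and itself had a log2 fold change of 0.0083 (FDR = 0.978, edgeR).

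*LPCAT3* (ENSG00000111684), which places polyunsaturated chains into membrane phospholipids, measured 56.8, 40.3 and 47.2 CPM with Apatinib and 34.3, 33.4 and 43.3 CPM in the control group. Apatinib replicate 2 was below control replicate 3. The log2 fold change was 0.38 (SE 0.159) and did not pass (FDR = 0.134, edgeR). Of its exon bases, 65.6% overlap *EMG1*, a gene on the opposite strand with a log2 fold change of 0.0134 (FDR = 0.958, edgeR). Whether the counting used strand is not given in the sources used here, so reads of the 2 genes may not be fully separated.

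*SCARB1* (ENSG00000073060), the HDL receptor SR-B1, had a fold change like those of *NR1H2* and *LPCAT3*, less than 1 SE apart. Its values were 109.8, 84.7 and 86.4 CPM with Apatinib and 67.1, 66.4 and 86.9 CPM in the control group. Apatinib replicates 2 and 3 lay just below control replicate 3. The log2 fold change of 0.35 (SE 0.151) did not pass (FDR = 0.142, edgeR). Without Apatinib replicate 1 it was 0.22, and that of *LPCAT3* was 0.24.

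**Figure D2:**
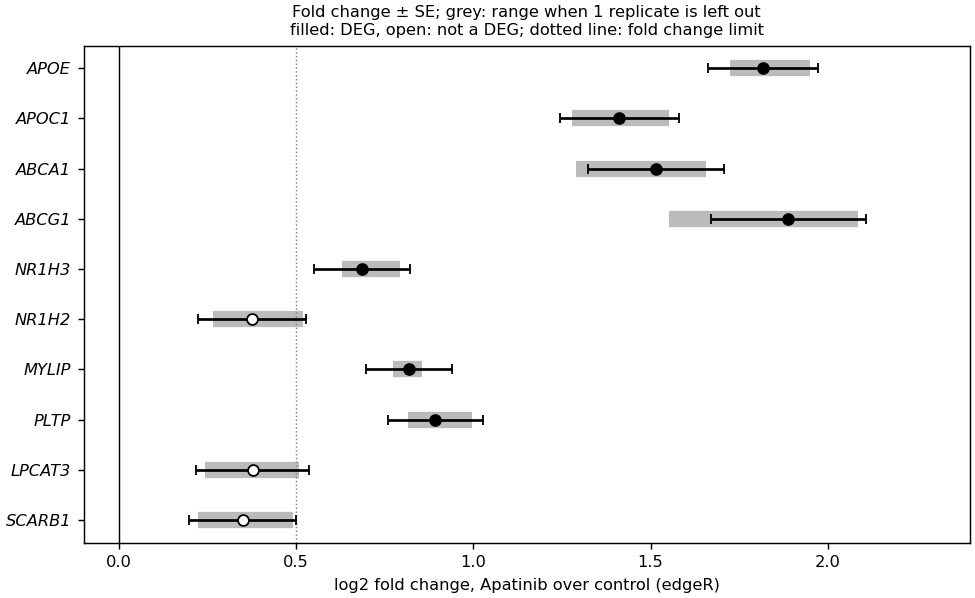
Log2 fold change of each gene (points, filled for DEGs, with 1 SE; horizontal axis) and the range it took when 1 of the 6 replicates was left out in turn (grey bars). All ranges stay above 0, *APOE*, *APOC1*, *ABCA1* and *ABCG1* keep values of 1.279 or more, and *NR1H2* and *LPCAT3* cross the limit of 0.5 in part of theirs.

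In CPM, the same 7 genes that were DEGs had Apatinib values all above their control values, against 17.5% of all tested genes. In the deposited FPKM, all 10 genes did, against 19.5% of 15829 genes with a mean above 0.5 FPKM. *NR1H2*, *LPCAT3* and *SCARB1* therefore separated in one unit and overlapped in the other. Their log2 ratios of mean FPKM were 0.42, 0.38 and 0.35, close to their fold changes from counts. The ratios of *APOE* (1.87), *APOC1* (1.35), *ABCA1* (1.55) and *ABCG1* (1.91) were also close to those from counts, while the median log2 FPKM ratio over all these genes was 0.0235.

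Levels between genes were compared in FPKM, which corrects for transcript length. In the control group *APOE* was first at 69.3 ± 6.90 FPKM and *PLTP* next at 30.7 ± 1.93 FPKM (SD, n = 3 each, as for all levels here), each above the next gene in all replicates. *SCARB1* (18.4 ± 2.21) and *LPCAT3* (17.8 ± 1.23) overlapped, and so did neighbours among *NR1H3* (14.7 ± 0.992), *APOC1* (12.4 ± 2.61) and *NR1H2* (11.9 ± 0.655). *MYLIP* followed at 7.54 ± 0.312 FPKM, above *ABCG1* (6.97 ± 0.119), which overlapped *ABCA1* (6.39 ± 1.22).

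With Apatinib, *APOE* reached 252.9 ± 44.8 FPKM and *PLTP* 59.1 ± 6.82 FPKM, and both again stood above the next gene in all replicates. The other 8 formed a run in which every neighbour overlapped the next: *APOC1* at 31.7 ± 1.66 FPKM, *ABCG1* at 26.1 ± 10.5, *SCARB1* at 23.5 ± 2.66, *LPCAT3* at 23.1 ± 3.28, *NR1H3* at 22.4 ± 2.04, *ABCA1* at 18.7 ± 5.58, *NR1H2* at 15.8 ± 3.19 and *MYLIP* at 13.2 ± 0.826. *ABCG1* and *ABCA1*, the lowest in the control group in FPKM, were thus no longer the lowest by mean FPKM with Apatinib, within overlapping ranges.

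**Figure D3:**
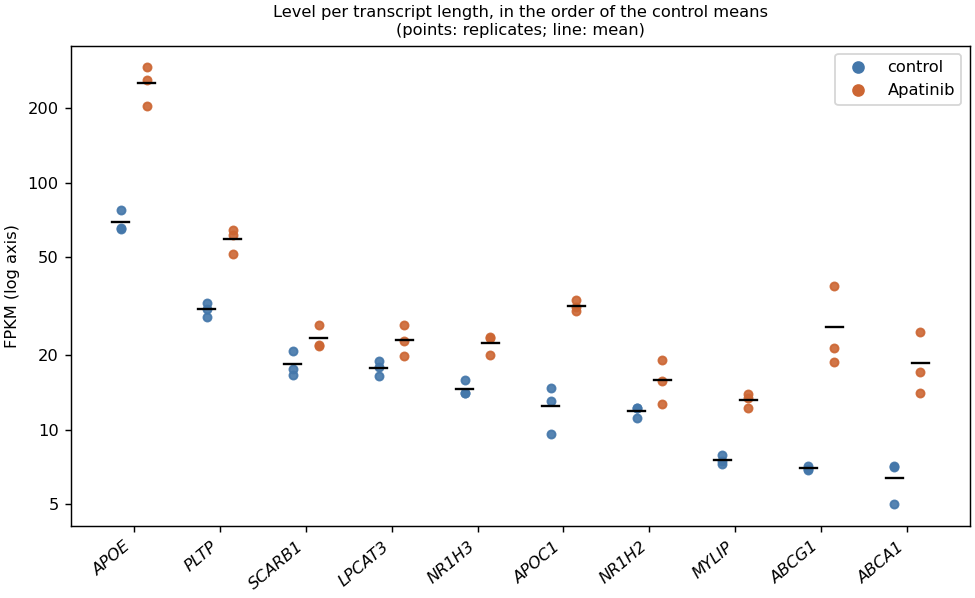
FPKM of the 10 genes (vertical log axis) in each control and Apatinib replicate, with a line at each mean, in descending order of the control means. *APOE* leads in both groups, at 69.3 FPKM in the control group and 252.9 FPKM with Apatinib, and the lowest pair of the control group, *ABCG1* and *ABCA1*, moves up among the others.

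The replicates of the Apatinib group were not ordered alike in all genes. Apatinib replicate 3 was lowest in 7 of the 10 genes. Replicate 1 was highest in 6 and replicate 2 in 4, namely *APOE*, *ABCA1*, *ABCG1* and *NR1H2*. Spread was widest in *ABCG1*, with a coefficient of variation of 37.3%, and in *ABCA1*, with 26.4%.

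Over the 6 replicates, Pearson's r of log2 CPM with *APOE* was 0.993 for *PLTP*, 0.989 for *MYLIP*, 0.985 for *NR1H3*, 0.976 for *ABCG1*, 0.974 for *APOC1* and 0.925 for *ABCA1*. It was lower for *NR1H2* (0.837), *SCARB1* (0.772) and *LPCAT3* (0.731). Among 10319 other genes with a mean of at least 10 CPM, those most like *APOE* were *YPEL2* (0.9991), *PPM1M* (0.9986), *SQSTM1* (0.9985), *CYP27A1* (0.9981) and *GPR56* (0.9978). All points share the 2 groups and the same libraries, so these values describe likeness alone. Of these 5 genes, *SQSTM1* encodes an autophagy cargo receptor and *CYP27A1* the enzyme that makes 27-hydroxycholesterol, an LXR ligand, and their log2 fold changes were 0.86 and 0.90. For the other 3, *YPEL2*, *PPM1M* and *GPR56*, it was 0.58, 0.80 and 1.18.

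The pathway around the 10 genes was read from 8 lists of 105 other genes, of which 82 were tested. Of these, 18 were DEGs higher with Apatinib and 2 were DEGs lower with Apatinib, and the median log2 fold change was 0.25. Without control replicate 1 the 20 DEGs became 10, and without control replicate 2 they became 11. The lists were drawn up with earlier results of these data known, so their counts stand as descriptions beside the shares over all genes given above.

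LXRs act with RXRs and with coactivators and corepressors. Of 13 tested genes for these partners, 0 were DEGs higher with Apatinib, and *TBL1XR1*, a corepressor subunit, fell (184 ± 28.0 CPM in the control group, 129 ± 15.6 CPM with Apatinib, SD, n = 3 each; log2 fold change -0.52, SE 0.146, FDR = 0.0408, edgeR), a call lost on leaving out any single replicate other than control replicate 3 and under 5 other settings. *RXRA* had a log2 fold change of 0.06 (FDR = 0.802) and *RXRB* of 0.20 (FDR = 0.314, both edgeR). *TBL1X*, a paralogue of *TBL1XR1*, was higher in all Apatinib replicates than in any control replicate, with a log2 fold change of 0.41 (FDR = 0.0449, edgeR), under the limit of 0.5 for a DEG. The median of this list was 0.03, the value of *GPS2*, whose 10 to 22 counts stand beside 36.2 to 41.3 FPKM and, as for *CD68*, may not measure its expression.

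Among 10 tested further LXR targets, all 10 had a log2 fold change above 0, with a median of 0.91. Of these, 7 were DEGs higher with Apatinib and 0 were DEGs lower, against 5.97% and 5.48% of all tested genes. *SCD*, the desaturase that makes oleate, went from 508 ± 51.6 to 2211 ± 219 CPM (SD, n = 3 per group, log2 fold change 2.12, SE 0.137, FDR = 3.38e-05, edgeR). *SREBF1*, the regulator of fatty acid synthesis, had 658, 615 and 551 CPM against 260, 260 and 318 CPM (log2 fold change 1.12, SE 0.132, FDR = 0.00213, edgeR), and *FASN*, the fatty acid synthase, a log2 fold change of 1.47 (SE 0.203, FDR = 0.00361, edgeR). *ABCG5* and *ABCG8*, which export sterols from liver and gut, had at most 2 counts in any replicate.

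Of 6 tested oxysterol enzymes, 5 had a log2 fold change above 0. Of the 6, 3 were DEGs, all higher with Apatinib, against 5.97% of all tested genes. They were *CYP27A1* (19.1 ± 1.29 to 35.6 ± 3.23 CPM, SD, n = 3 each; log2 fold change 0.90, SE 0.134, FDR = 0.00478, edgeR), *CYP11A1* (1.28, SE 0.244, FDR = 0.0109) and *SULT2B1* (1.55, SE 0.460, FDR = 0.0478). *CYP11A1* cleaves the cholesterol side chain and *SULT2B1* sulphates sterols. *SULT2B1* was scarce, at 0.630 to 1.57 CPM with Apatinib, and lost its call on leaving out any single replicate other than Apatinib replicate 3. It had 11 to 27 counts with Apatinib and 5 to 8 in the control group. It thus passed the filter on low counts only through the group where it was high, and nothing is read from its call. *CYP11A1* lost its call without control replicate 1.

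Besides *APOE* and *APOC1*, 21 other apolipoprotein genes were listed. Of these, 11 were too scarce to be tested and 1 of the remaining 10 was a DEG, *CLU* (clusterin, or apolipoprotein J), with 68.2 ± 6.29 CPM in the control group and 133 ± 26.4 CPM with Apatinib (SD, n = 3 per group, log2 fold change 0.96, SE 0.152, FDR = 0.00568, edgeR).

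Among 12 tested APOE receptors and genes that control them, 4 were DEGs, all higher with Apatinib. *LRP1*, a large endocytic receptor that takes up APOE-bearing particles, had 535, 558 and 459 CPM with Apatinib and 346, 351 and 365 CPM in the control group, without overlap. It rose by 0.55 on the log2 scale (SE 0.12, FDR = 0.0175, edgeR). The *LRP1* call was lost without control replicate 1, without control replicate 2 and without Apatinib replicate 2.

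Of 17 tested sterol traffic and storage genes, 1 was a DEG, *STARD5*, a carrier of cholesterol and bile acids (log2 fold change 0.75, SE 0.219, FDR = 0.0460, edgeR), and it lost its call on leaving out any single replicate other than Apatinib replicate 2 and under 6 other settings, DESeq2 (FDR = 0.0551) and the replicate block (FDR = 0.0541, edgeR) among them. Of the *STARD5* exon bases, 68.6% overlap *IL16* on the opposite strand, so reads of both genes may not be fully separated. Of 9 phospholipid remodelling genes, *LIPC*, the hepatic lipase, rose (10.8 ± 1.06 to 26.1 ± 5.09 CPM, SD, n = 3 each; log2 fold change 1.27, SE 0.173, FDR = 0.00358, edgeR). *LIPG*, the endothelial lipase, fell from 6.04 ± 0.322 to 2.35 ± 0.339 CPM (SD, n = 3 per group, log2 fold change -1.36, SE 0.204, FDR = 0.00484, edgeR). These 2 related lipases thus changed in opposite directions.

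**Figure D4:**
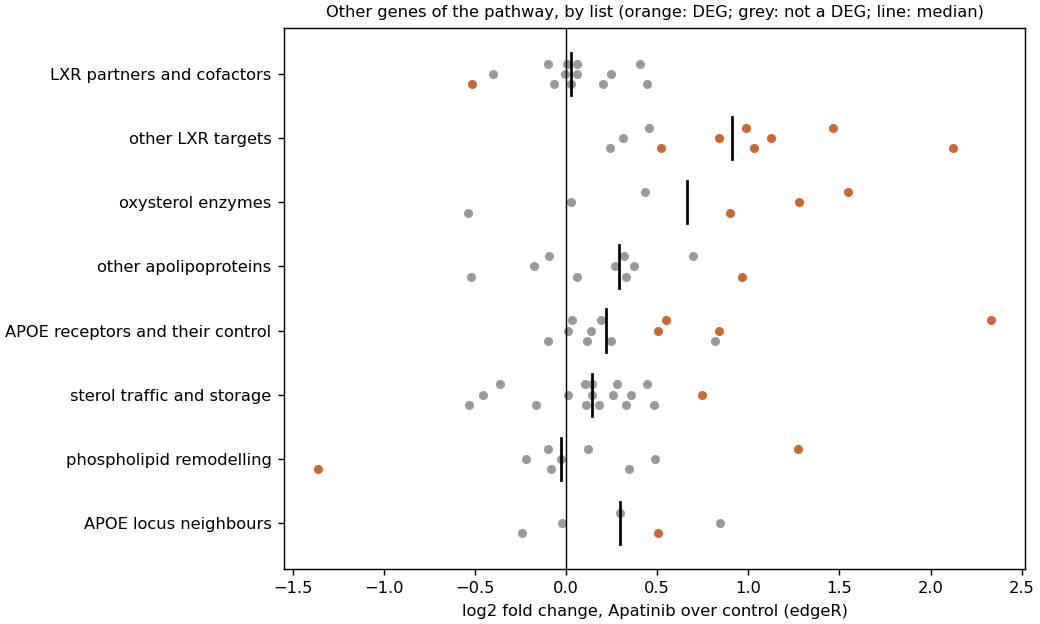
Log2 fold change (horizontal axis) of each tested gene in the 8 lists of other pathway genes, with DEGs in orange, other genes in grey and a vertical line at each list's median. The list of other LXR targets has its median at 0.91, and the list of LXR partners at 0.03.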

How the data were processed

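RNA of 3 Apatinib and 3 control replicates was sequenced; the labels name total RNA and the study's methods an mRNA extraction. The authors aligned reads to hg19 with STAR 2.7.1a, per the labels, and deposited counts per gene and FPKM per gene; the counting program, annotation and strand setting are not given in the sources used here. Samples were grouped by their titles. Counts were fitted with edgeR 4.0.16 in R 4.3.3 (filterByExpr, TMM scaling, quasi-likelihood test, two-sided, Benjamini-Hochberg over 16290 genes), and the script was checked on simulated counts. FPKM served for levels between genes. CPM used TMM-scaled totals. Depth was 17043314 to 22067558 counts per replicate.

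The members and lists were chosen with earlier results of these data known. Named genes were the 10 members, all *APOE* neighbours, up to 3 DEGs of each other list by smallest p, and the 5 genes most like *APOE*; *RXRA*, *RXRB*, *TBL1X*, *GPS2*, *ABCG5*, *ABCG8*, marker genes and overlapping genes were named beyond this rule, after their values were seen. Some items this rule names are not reported here. Sequences came from RefSeq (GRCh38.p14) and overlaps from GENCODE 29. One column of per-sample values, headed with a control label in the FPKM table of an Apatinib replicate, was not used (1 in all). Alternatives were DESeq2 1.42.0, limma 3.58.1 on log2 FPKM, other scalings and filters, a replicate block, and leaving out each replicate.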

Additional observations from a re-analysis of the deposited data

How the results depend on the processing

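The 10 genes had 7 DEGs under DESeq2, RLE size factors, both other count filters, FDR alone and limma on log2(FPKM + 1) or log2(FPKM + 0.1). They had 6 with control replicates 1 and 2 summed (*NR1H3* lost) and 6 to 8 when 1 replicate was left out, and no log2 fold change of the 10 changed sign. With limma on log2(FPKM + 1) and no filter, 0 of the 10 and 9 of all genes were DEGs, although all 10 had an unadjusted p under 0.05; the cause was not tested. The 1866 DEGs over all genes became 292 with the 2 controls summed, 796 and 810 with limma at pseudocounts of 1 and 0.1, and 275 to 2594 when 1 replicate was left out, the fewest without control replicate 1 (275), control replicate 2 (300) and Apatinib replicate 1 (795). The 20 DEGs of the wider pathway became 11 with the controls summed, 13 and 13 with limma, 1 with limma unfiltered, and 10 to 20 with 1 replicate left out (10 without control replicate 1, 11 without control replicate 2). The count of 1 among *APOE* neighbours became 0 with RLE size factors, with at least 10 counts in every replicate, with the controls summed and with limma in all 3 forms, 2 with no filter on low counts, and 0 to 1 with 1 replicate left out. *CLPTM1* turned from -0.02 to 0.0735 without Apatinib replicate 2, 0.0037 without Apatinib replicate 3 and 0.0873 without control replicate 3, over a range of -0.1469 to 0.0873 with 1 replicate left out.

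Deviations of same-numbered replicates from their group means correlated at -0.259, 0.0808 and -0.220. The highest value of any pair was 0.387, for Apatinib replicate 1 with control replicate 3. With 3 replicates per group these values cannot decide whether replicate numbers pair the samples. With the number as a replicate block, 2215 genes and 7 of the 10 were DEGs, as were 19 of the wider pathway and 1 *APOE* neighbour (*RELB* in place of *BCAM*).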
